A study of Mus musculus with 24 samples.

Results

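The SLC25 family, the carriers that move metabolites across the inner membrane of mitochondria, was examined in RNA-seq of 24 mouse kidneys. Its members were taken by symbol, as rows of the deposited table named Slc25a followed by a number, and 46 of its 55416 gene IDs are described here. The kidneys fell into 4 groups of 6, which were B-IRI PolgD257A, B-IRI Polg+/+, sham PolgD257A and sham Polg+/+. PolgD257A is a change in the catalytic subunit of the mitochondrial DNA polymerase that takes away its proofreading, so that mitochondrial DNA gathers mutations, and the Polg+/+ animals were littermates. B-IRI is the label's name for the ischemia reperfusion surgery, in which blood flow to the kidney is stopped and restored, and sham kidneys had the control surgery. All 4 groups are kidney tissue from animals, and the labels call the 6 libraries of a group biological replicates. The sources used here do not give the copy number of the D257A allele, nor sex, age or the interval between surgery and sampling. The stated question is what mutations of mitochondrial DNA add to ischemia reperfusion injury, and the comparisons below give the carrier genes' values for it.

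The inner membrane of mitochondria lets few solutes through, and SLC25 proteins are the gates for most of those that must cross. Each carrier is a small membrane protein built from repeats of one fold, encoded in the nucleus and made in the cytosol. Carriers of the inner membrane are inserted with the help of the TIM22 machinery. Some carry out what oxidative phosphorylation needs, exporting ATP against ADP and importing phosphate. Others bring in cofactors such as coenzyme A, NAD, folate and glutathione, or exchange carboxylates and amino acids between the Krebs cycle and the cytosol, as in the malate-aspartate shuttle. The proximal tubule of the kidney is dense in mitochondria and lives on fatty acid and amino acid oxidation. The carriers were placed in 7 classes by the substrate they are known for, with choline counted among the amino acids.

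Reads assigned to genes numbered 16689284 to 26341004 per library. Of the 46 carriers, 42 reached a level of 10 normalized counts in 6 or more libraries and were tested, among 17430 genes in all. The other 4 averaged under 3 normalized counts over the 24 libraries. They were Slc25a2, an ornithine carrier (mean 2.08), Slc25a31, the ADP/ATP carrier of the testis (0.972), Slc25a41, an ATP-Mg/phosphate carrier (0.351), and Slc25a54 (0.116). Normalized counts are read counts per gene divided by a size factor per library. Changes are given as log2 differences on the log2(normalized count + 1) scale with the standard error (SE) of limma, and adjusted p-values come from its moderated two-sided test over all 17430 genes, with a threshold of 0.05. By GENCODE M21, 15 of the 42 tested carriers overlap a gene on the opposite strand, and the sources used here do not say whether the counting used strand. Their reads may be mixed, and this touches Slc25a11 (with Rnf167), Slc25a21 (Pax9), Slc25a35 (Rangrf), Slc25a23 (Crb3), Slc25a25 (Naif1), Slc25a53 (Zcchc18), Slc25a18 (Atp6v1e1), Slc25a26 (Lrig1) and, with gene models known by an accession-like name, Slc25a10, Slc25a12, Slc25a16, Slc25a33, Slc25a36, Slc25a37 and Slc25a46. Slc25a5 also has a pseudogene in the table, Slc25a5-ps, which may share reads with it.

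Cell type markers moved with the groups and stand beside every result below. The summed normalized counts of 8 proximal tubule markers (Lrp2, Cubn, Slc34a1, Slc5a2, Slc5a12, Slc22a6, Kap and Miox) were 247153 to 413974 in B-IRI PolgD257A and 433195 to 542256 in B-IRI Polg+/+ kidneys. In sham they were 713811 to 945032 in PolgD257A and 706481 to 863996 in Polg+/+ kidneys. Kap made up much of these sums, with a mean of 203023 of 317006 in B-IRI PolgD257A and 293153 of 479473 in B-IRI Polg+/+ kidneys. After B-IRI, 6 of the 8 markers were lower in PolgD257A than in Polg+/+ and 0 were higher. After B-IRI the genotypes overlapped widely for Slc5a2 (7532 to 9509 in PolgD257A, 7440 to 11520 in Polg+/+) and Slc5a12 (2370 to 4213 in PolgD257A, 2199 to 5248 in Polg+/+). Markers of the injured tubule (Havcr1, Lcn2 and Krt20) summed to 33239.6 to 52417 in B-IRI PolgD257A, 6780.1 to 30299 in B-IRI Polg+/+, 228 to 313 in sham PolgD257A and 206 to 300.1 in sham Polg+/+ kidneys. Fibroblast markers (Col1a1, Col3a1 and Pdgfrb) summed to 6832 to 12485 in B-IRI PolgD257A, 3352 to 7884 in B-IRI Polg+/+, 1392 to 2020.3 in sham PolgD257A and 1706 to 2219 in sham Polg+/+ kidneys. All 3 injured tubule and all 3 fibroblast markers were higher in PolgD257A than in Polg+/+ kidneys after B-IRI. So were 3 of 4 endothelial (Pecam1, Cdh5, Kdr and Emcn) and 2 of 4 leukocyte markers (Ptprc, Cd68, Adgre1 and Lyz2). All 3 markers of the thick ascending limb (Umod, Slc12a1 and Cldn16), both of the distal convoluted tubule (Slc12a3 and Pvalb) and 1 of 3 of the collecting duct (Aqp2, Aqp3 and Atp6v1g3) were lower. In sham 0 of the 30 markers passed between the genotypes by limma, and 4 had an unadjusted p under 0.05. In bulk tissue fewer cells of a type and less RNA per cell cannot be told apart, and the part these shifts have in the results on carriers was not tested.

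Per length, the carriers differed widely in level. The levels here are normalized counts per kilobase of annotated exon (GENCODE M21, all exons of a gene merged), which understates genes with long alternative exons. Slc25a5, the main ADP/ATP carrier of most tissues, stood first in every group, at 11044 ± 669 per kb in B-IRI PolgD257A, 13448 ± 1093 in B-IRI Polg+/+, 14744 ± 690.0 in sham PolgD257A and 14201 ± 639.5 in sham Polg+/+ kidneys (SD, n = 6). In each group its lowest library lay above the highest library of the next carrier, Slc25a39, a glutathione carrier. In sham Polg+/+ kidneys Slc25a39 had 5381 ± 265 per kb. Then came the phosphate carrier Slc25a3 with 3942 ± 124 and Slc25a4, the ADP/ATP carrier of heart and muscle, with 3589.6 ± 379, and the ranges of Slc25a3 and Slc25a4 overlapped. The dicarboxylate carrier Slc25a10, long known from kidney and liver, followed with 2784 ± 366 per kb, the 2-oxoglutarate/malate carrier Slc25a11 with 1946 ± 108 and the citrate carrier Slc25a1 with 1410.3 ± 88.4. Slc25a10 reached into the range of Slc25a4, while Slc25a11 (1798 to 2065 per kb) stood clear of Slc25a10 (2113 to 3182) and of Slc25a1 (1282 to 1531). The lowest 3 of the tested carriers were Slc25a53 (8.51 per kb), Slc25a18 (6.80) and Slc25a43 (6.53). The order among the highest 7 was the same in all groups but B-IRI PolgD257A, where Slc25a4 (3367 ± 362) and Slc25a3 (3359 ± 255) were level.

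**Figure D1:**
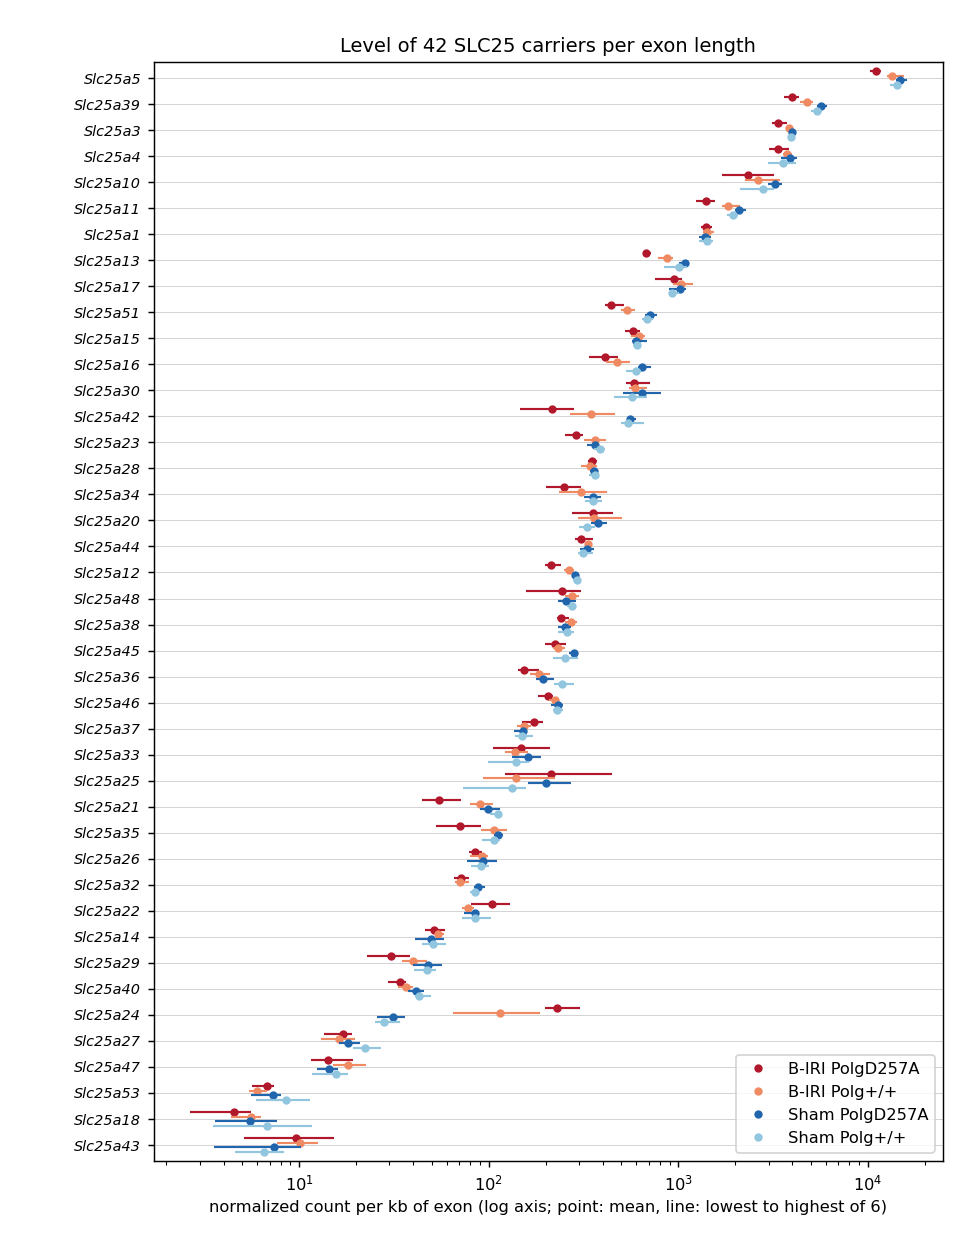
Level of the 42 tested carriers as normalized counts per kb of exon on a log axis, ordered by sham Polg+/+. Points are means and lines run between the lowest and highest of 6 libraries. Slc25a5 leads in all 4 groups, and Slc25a24 is the carrier whose B-IRI points lie farthest to the right of its sham points.

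The 46 carriers together took 0.523% ± 0.0237 of all normalized counts in B-IRI PolgD257A, 0.574% ± 0.0257 in B-IRI Polg+/+, 0.583% ± 0.00866 in sham PolgD257A and 0.572% ± 0.0109 in sham Polg+/+ kidneys (SD, n = 6). B-IRI PolgD257A libraries reached 0.485% to 0.550%, below every sham PolgD257A library (0.576% to 0.595%). Slc25a3, Slc25a4 and Slc25a5 together made up 42.4% ± 2.86 of these carriers' counts in B-IRI PolgD257A, 43.2% ± 0.576 in B-IRI Polg+/+, 41.4% ± 0.869 in sham PolgD257A and 41.8% ± 1.81 in sham Polg+/+ kidneys.

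After B-IRI, PolgD257A kidneys had less mRNA of many carriers than Polg+/+ kidneys and more of a few. Of the 42 tested carriers 16 (38.1%) were lower and 3 (7.14%) higher, against 15.2% lower and 14.3% higher among all genes tested. The median change of the carriers was -0.15, beside 0.01 over all genes. For 8 carriers all 6 PolgD257A libraries lay below all 6 Polg+/+ libraries (19.0%, against 5.94% of all genes), and for 1 they lay above (2.38%, against 4.65%). The largest falls were in the oxodicarboxylate carrier Slc25a21, the coenzyme A carrier Slc25a42 and Slc25a35, which has no agreed substrate. The 3 rises were in the ATP-Mg/phosphate carrier Slc25a24, the glutamate carrier Slc25a22 and the iron importer Slc25a37.

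**Figure D2:**
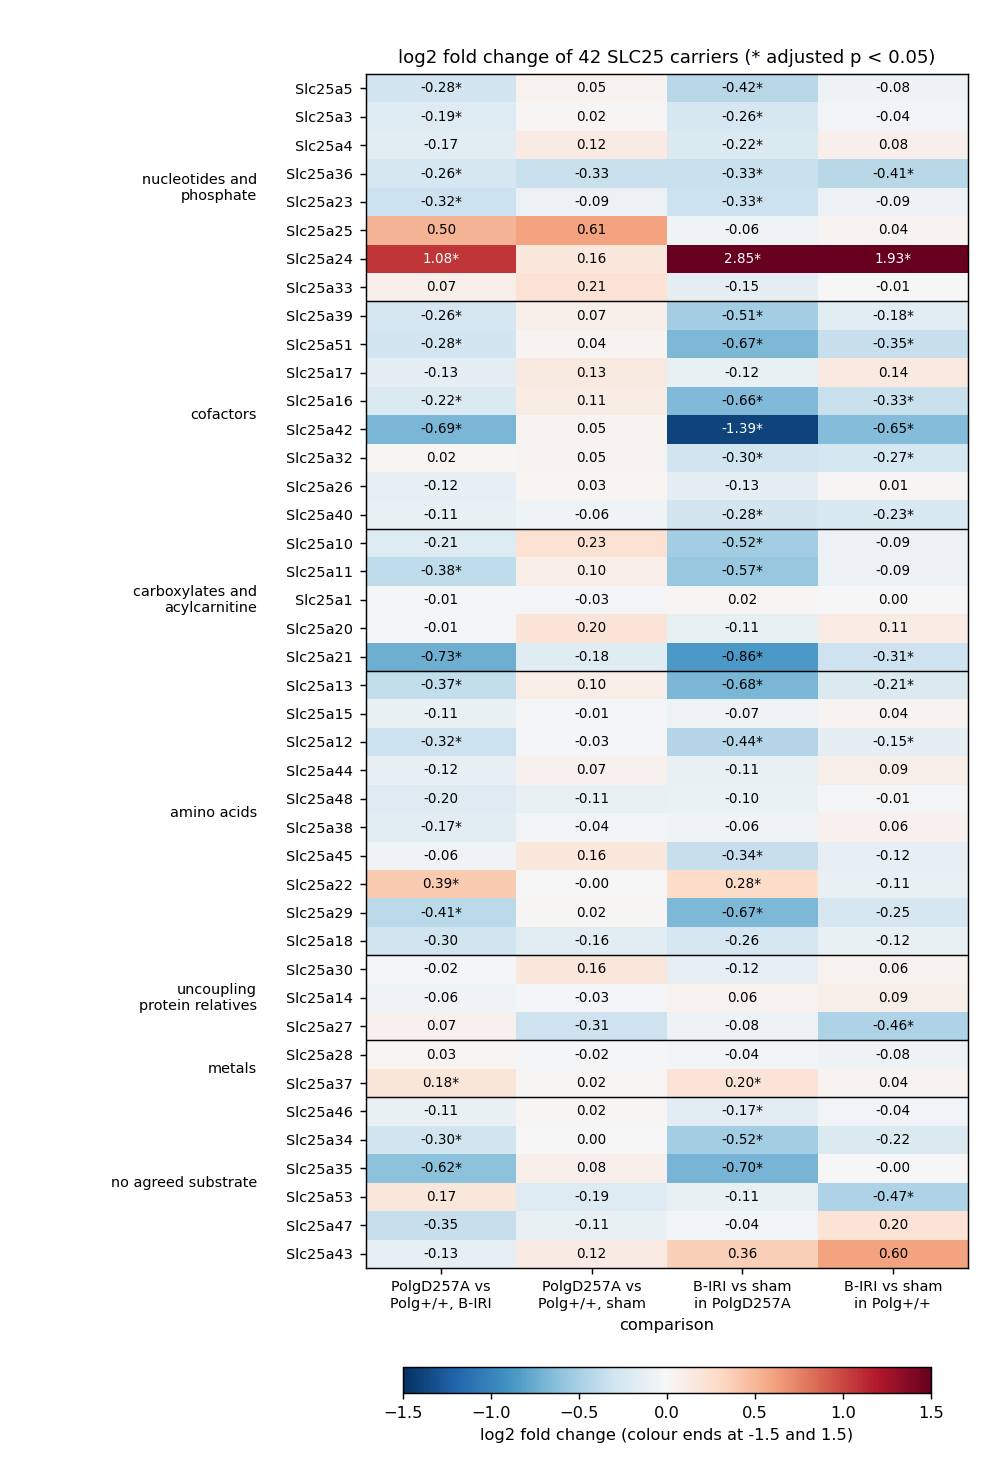
Log2 fold change of the 42 tested carriers (rows, grouped by substrate) in 4 comparisons of 6 against 6 kidneys (columns), with PolgD257A over Polg+/+ and B-IRI over sham. Asterisks mark an adjusted p under 0.05. Blue prevails in the genotype column after B-IRI and in the surgery column of PolgD257A, no cell of the sham genotype column carries an asterisk, and Slc25a24 is the darkest red.

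Among carriers of nucleotides and phosphate, 4 of 8 were lower and 1 higher, against 15.2% and 14.3% of all genes. Slc25a24 encodes a calcium-gated exchanger of ATP-Mg for phosphate, which helps set the adenine nucleotide pool of the matrix. Its normalized counts (lowest, median and highest of 6) were 682, 752 and 1039 in B-IRI PolgD257A and 222, 372 and 641 in B-IRI Polg+/+ kidneys. Sham kidneys had 87.9, 109 and 124 in PolgD257A and 86.00, 92.3 and 117 in Polg+/+. The PolgD257A libraries all lay above the Polg+/+ libraries after B-IRI, while in sham the genotypes overlapped. The change after B-IRI was 1.08 ± 0.17 (2.11-fold, adjusted p = 4.7e-05). Within B-IRI Polg+/+ kidneys replicate 1 had the least Slc25a24 (222) and the least Havcr1 (5441). Replicate 6 of that group had the most Slc25a24 (641) and the most Havcr1 (24888). In B-IRI PolgD257A kidneys Havcr1 was at 25923 to 36062. The relation of Slc25a24 to Havcr1 across libraries was not tested.

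Its relative Slc25a23 went the other way, with 1339.6, 1549 and 1669 in B-IRI PolgD257A and 1687, 1936 and 2199.9 in B-IRI Polg+/+ kidneys, which did not overlap (log2 -0.32 ± 0.06, adjusted p = 2.3e-04). Slc25a25, of the same branch, varied widely (958 to 3535 in B-IRI PolgD257A, 733 to 1766 in B-IRI Polg+/+), and its difference did not pass (log2 0.50 ± 0.25, adjusted p = 0.14). Slc25a5 had 16837, 18254 and 19394 in B-IRI PolgD257A and 20659, 21613 and 25407 in B-IRI Polg+/+ kidneys, again with no overlap. It was 1.22-fold lower (log2 -0.28 ± 0.06, adjusted p = 4.6e-04), and under quantile normalization the call was lost (-0.11). Slc25a3, which supplies the phosphate that ATP synthase uses, was lower by less (log2 -0.19 ± 0.05, adjusted p = 0.0039), and its call too was lost under quantile normalization (-0.03). Slc25a4 did not pass (log2 -0.17 ± 0.07, adjusted p = 0.066), and it passed without sham Polg+/+ replicate 3 or 6 or B-IRI PolgD257A replicate 2 or 3 (-0.21 to -0.17, adjusted p = 0.022 to 0.048). The pyrimidine nucleotide carriers Slc25a36 and Slc25a33 serve mitochondrial DNA and RNA synthesis. Slc25a36 had 1364, 1446 and 1775 in B-IRI PolgD257A and 1591, 1749 and 2011 in B-IRI Polg+/+ kidneys, overlapping groups whose difference passed (log2 -0.26 ± 0.07, adjusted p = 0.01), and Slc25a33 did not pass (log2 0.07 ± 0.13, adjusted p = 0.73).

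Cofactor carriers were lower in 4 of 8 cases and higher in 0, against 15.2% and 14.3% of all genes. Slc25a42 imports coenzyme A, which the matrix needs for fatty acid oxidation. It had 877, 1327 and 1691 in B-IRI PolgD257A and 1617, 2097 and 2776 in B-IRI Polg+/+ kidneys, so that the groups touched at their edges, and was 1.61-fold lower (log2 -0.69 ± 0.12, adjusted p = 1.1e-04). Slc25a16, also tied to coenzyme A, was at -0.22 ± 0.07 (adjusted p = 0.027), a call lost without replicate 1, 4 or 5 of B-IRI Polg+/+ or replicate 1 or 2 of B-IRI PolgD257A (-0.21 to -0.16, adjusted p = 0.0501 to 0.088). The glutathione carrier Slc25a39 had 9992, 11000.1 and 11958 in B-IRI PolgD257A and 12159, 12989 and 14240.5 in B-IRI Polg+/+ kidneys, and no libraries overlapped (log2 -0.26 ± 0.05, adjusted p = 6.0e-04). Its paralog Slc25a40 did not pass (log2 -0.11 ± 0.07, adjusted p = 0.23). Slc25a51, the NAD carrier, had 2257, 2388 and 2835 in B-IRI PolgD257A and 2762, 2969 and 3257 in B-IRI Polg+/+ kidneys (log2 -0.28 ± 0.05, adjusted p = 2.5e-04), with 1 PolgD257A library inside the Polg+/+ range. The folate and FAD carrier Slc25a32 (0.02 ± 0.06), the S-adenosylmethionine carrier Slc25a26 (-0.12 ± 0.08) and the peroxisomal cofactor carrier Slc25a17 (-0.13 ± 0.07) did not pass.

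Among the 5 carboxylate and acylcarnitine carriers 2 were lower, a count from a small class, against 15.2% of all genes. Slc25a21 moves 2-oxoadipate, an intermediate of lysine and tryptophan breakdown. Its values were 217, 263 and 347 in B-IRI PolgD257A and 389, 420.0 and 514 in B-IRI Polg+/+ kidneys, with no overlap and a 1.66-fold fall (log2 -0.73 ± 0.10, adjusted p = 4.5e-06). Slc25a11 exchanges 2-oxoglutarate for malate in the malate-aspartate shuttle and had 2636, 3017 and 3297 in B-IRI PolgD257A and 3614, 3769 and 4479 in B-IRI Polg+/+ kidneys. Here too every PolgD257A library was the lower (log2 -0.38 ± 0.06, adjusted p = 2.1e-05). Slc25a10 was widely spread in B-IRI PolgD257A (5879, 7801 and 11037) against B-IRI Polg+/+ (7746, 8814 and 11923) and did not pass (log2 -0.21 ± 0.13, adjusted p = 0.26). The carnitine/acylcarnitine carrier Slc25a20, which brings long fatty acids in for oxidation, was at -0.01 ± 0.12 (adjusted p = 0.94) and the citrate carrier Slc25a1 at -0.01 ± 0.05 (adjusted p = 0.85).

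Of 10 amino acid carriers tested, 4 were lower and 1 higher, against 15.2% and 14.3% of all genes. The aspartate/glutamate carriers Slc25a13 (citrin) and Slc25a12 (aralar) complete the malate-aspartate shuttle. Slc25a13 had 2473, 2538 and 2737 in B-IRI PolgD257A and 2974, 3324 and 3580.4 in B-IRI Polg+/+ kidneys, and Slc25a12 had 1462, 1534 and 1759 in B-IRI PolgD257A and 1829, 1929 and 2061 in B-IRI Polg+/+ kidneys. Neither overlapped (-0.37 ± 0.06, adjusted p = 2.0e-05, and -0.32 ± 0.05, adjusted p = 1.1e-05). The basic amino acid carrier Slc25a29 was lower at few counts, with 59.5, 77.96 and 100.03 in B-IRI PolgD257A and 90.7, 99.4 and 123 in B-IRI Polg+/+ kidneys (log2 -0.41 ± 0.13, adjusted p = 0.017), a call lost without B-IRI PolgD257A replicate 4 (-0.33, adjusted p = 0.057). The glycine carrier Slc25a38 was at -0.17 ± 0.05 (adjusted p = 0.019) and lost its call without B-IRI Polg+/+ replicate 5 (-0.14, adjusted p = 0.057). The glutamate carrier Slc25a22 ran against the class, with 484, 585 and 777 in B-IRI PolgD257A and 433, 468 and 504 in B-IRI Polg+/+ kidneys (log2 0.39 ± 0.10, adjusted p = 0.0042). Its groups overlapped, and 2 PolgD257A libraries, replicates 4 and 6, stood at 777 and 763. The ornithine/citrulline carrier Slc25a15 (-0.11 ± 0.05), the branched-chain amino acid carrier Slc25a44 (-0.12 ± 0.06), the methylated amino acid carrier Slc25a45 (-0.06 ± 0.06), the choline carrier Slc25a48 (-0.20 ± 0.11) and Slc25a18, a low glutamate carrier (-0.30 ± 0.27), did not pass. Slc25a44 passed without B-IRI PolgD257A replicate 5 (-0.16, adjusted p = 0.019).

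The iron importer Slc25a37, mitoferrin 1, was 1.13-fold higher, with 908, 1047 and 1172 in B-IRI PolgD257A and 846, 922 and 1004 in B-IRI Polg+/+ kidneys (log2 0.18 ± 0.06, adjusted p = 0.029). The groups overlapped, and the call was lost without replicate 4 or 6 of B-IRI Polg+/+ or replicate 1 or 4 of B-IRI PolgD257A (0.14 to 0.17, adjusted p = 0.062 to 0.089). The other mitoferrin, Slc25a28, was at 0.03 ± 0.05 (adjusted p = 0.73). None of the 3 relatives of the uncoupling proteins passed, with the kidney mitochondrial carrier protein Slc25a30 at -0.02 ± 0.09, Slc25a14 (UCP5) at -0.06 ± 0.09 and Slc25a27 (UCP4) at 0.07 ± 0.11. Of 6 tested carriers without an agreed substrate 2 were lower, a count from a small class, against 15.2% of all genes. Slc25a35 had 195, 262 and 335 in B-IRI PolgD257A and 337, 381 and 458 in B-IRI Polg+/+ kidneys, which did not overlap, and was 1.53-fold lower (log2 -0.62 ± 0.10, adjusted p = 4.1e-05). Slc25a34 was at -0.30 ± 0.11 (adjusted p = 0.038), a call lost without replicate 1, 3 or 5 of B-IRI Polg+/+ or replicate 1, 2 or 3 of B-IRI PolgD257A (-0.31 to -0.21, adjusted p = 0.058 to 0.13). Slc25a46, an outer membrane member of the family (-0.11 ± 0.05), Slc25a47 (-0.35 ± 0.14), Slc25a43 (-0.13 ± 0.25) and Slc25a53 (0.17 ± 0.13) did not pass. Slc25a46 passed without replicate 6 of B-IRI Polg+/+ or replicate 4 of B-IRI PolgD257A (-0.13, adjusted p = 0.040 to 0.049). Slc25a47 passed without sham Polg+/+ replicate 2, replicate 2 of B-IRI Polg+/+ or B-IRI PolgD257A replicate 3 or 6 (-0.44 to -0.35, adjusted p = 0.013 to 0.0499), with a filter of 50 normalized counts (adjusted p = 0.048) and under quantile normalization (-0.39). Some of the smaller calls also ended in other fits. Without the filter on low counts Slc25a34, Slc25a16 and Slc25a37 did not pass (adjusted p = 0.070, 0.053 and 0.055). In a fit of the 12 B-IRI libraries alone Slc25a34, Slc25a16, Slc25a29 and Slc25a37 did not (adjusted p = 0.11, 0.077, 0.053 and 0.05002).

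**Figure D3:**
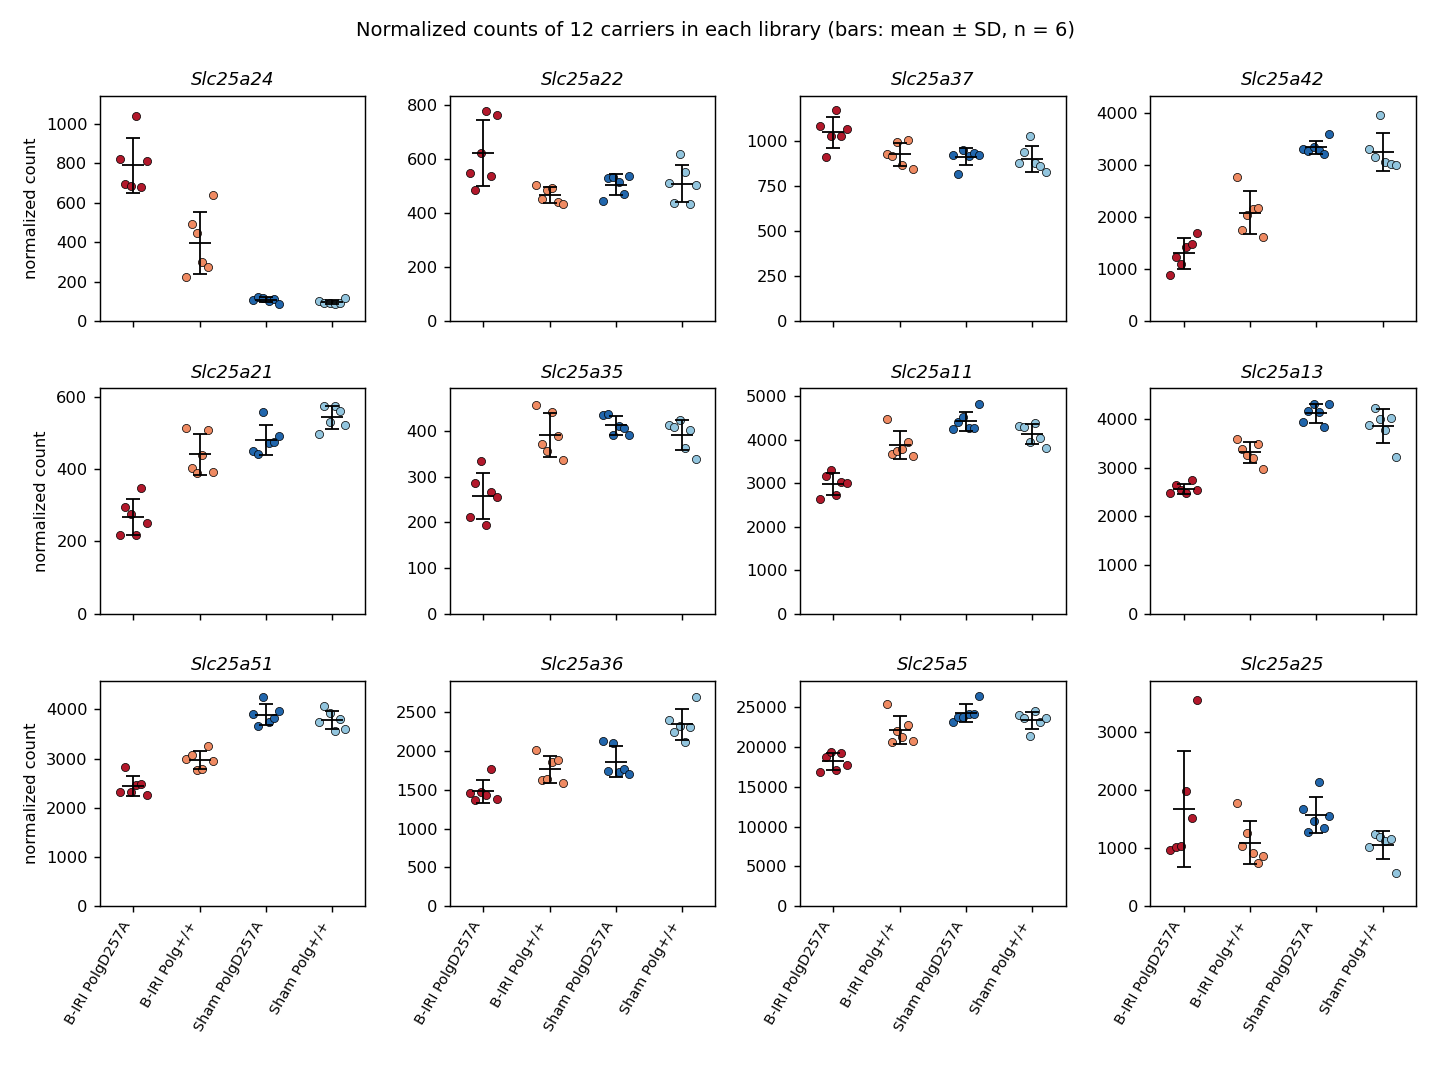
Normalized counts of 12 carriers in every library, with the mean and SD of 6 libraries as bars; each vertical axis starts at 0. Slc25a24 lies higher in both B-IRI groups than in sham and highest in B-IRI PolgD257A, while Slc25a21, Slc25a35, Slc25a11 and Slc25a13 have their lowest group in B-IRI PolgD257A with no overlap with B-IRI Polg+/+.

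The authors' deposited table for PolgD257A against Polg+/+ after B-IRI lists 1401 genes, and 4 of them are carriers. Here 42 carriers were tested among 17430 genes. The authors' table holds selected genes, while calls here rest on the adjusted p alone. Its count of carriers therefore cannot be set against the counts called here. In the authors' deposited table Slc25a24 has a shrunken log2 fold change of 0.93, Slc25a21 of -0.70, Slc25a42 of -0.64 and Slc25a35 of -0.58. These 4 are also the carriers with the largest changes here, and both sets of values come from the same experiment.

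In sham kidneys no carrier passed between the genotypes. By limma 0 of the 42 carriers passed, against 0.0402% lower and 0.0861% higher among all genes, and 4 had an unadjusted p under 0.05. The median was 0.02, beside 0.01 over all genes. The smallest p belonged to the pyrimidine nucleotide carrier Slc25a36, with 1705, 1762 and 2131 in sham PolgD257A and 2113, 2315 and 2699 in sham Polg+/+ kidneys. Of the PolgD257A libraries 1 reached into the Polg+/+ range (log2 -0.33 ± 0.07, adjusted p = 0.079). DESeq2 on recovered reads called it (-0.33, adjusted p = 0.018), quantile normalization did so (-0.35, adjusted p = 0.049), and edgeR did not (-0.33, adjusted p = 0.093). It also passed without sham PolgD257A replicate 1 or 3 or B-IRI PolgD257A replicate 5 (-0.37 to -0.33, adjusted p = 0.028 to 0.044). The other 3 were Slc25a27 (log2 -0.31 ± 0.11, adjusted p = 0.45), Slc25a45 (log2 0.16 ± 0.06, adjusted p = 0.53) and Slc25a25 (log2 0.61 ± 0.25, adjusted p = 0.56). Slc25a25 was the single carrier whose sham groups did not overlap (2.38%, against 0.379% of all genes), with 1271, 1508 and 2136 in sham PolgD257A and 574, 1136 and 1245 in sham Polg+/+ kidneys. One Polg+/+ library, replicate 6 with 574, stood apart from the other 5 (1009 to 1245). The pooled SE of 0.25 includes the wide B-IRI PolgD257A group.

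B-IRI against sham in PolgD257A kidneys lowered many carriers. Here 21 (50%) were lower and 3 (7.14%) higher, against 30.3% lower and 30.2% higher among all genes. The median was -0.19, beside -0.0011 over all genes. All 6 B-IRI libraries lay below all 6 sham libraries for 17 carriers (40.5%, against 17.5%), and above them for 1 (2.38%, against 18.8%). In Polg+/+ kidneys the same surgery lowered 12 (28.6%) and raised 1 (2.38%), against 19.8% and 21.4% of all genes, with a median of -0.08 beside -0.01. There 5 carriers had all B-IRI libraries below sham (11.9%, against 8.7%) and 1 above (2.38%, against 11.5%). Under quantile normalization the split in Polg+/+ kidneys was 11 lower and 5 higher. The comparisons within the genotypes share no library, but both come from one fit with a shared estimate of the spread, so their calls are not independent. In both, 10 carriers were lower, which is 47.6% of those lower in PolgD257A and 83.3% of those lower in Polg+/+. Over all genes tested the same shares were 56.9% in PolgD257A and 87.0% in Polg+/+, above those of the carriers.

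Slc25a24 was the carrier that B-IRI raised in both genotypes, by 2.85 ± 0.17 in PolgD257A (7.22-fold, adjusted p = 3.6e-13) and by 1.93 ± 0.17 in Polg+/+ kidneys (3.82-fold, adjusted p = 3.1e-09). In each genotype every B-IRI library exceeded every sham library. Slc25a22 (log2 0.28 ± 0.10, adjusted p = 0.018) and Slc25a37 (log2 0.20 ± 0.06, adjusted p = 0.0063) rose in PolgD257A. Slc25a22 had 484, 585 and 777 in B-IRI and 445, 523 and 536 in sham PolgD257A kidneys, and its call was lost without B-IRI PolgD257A replicate 4 or 6 (0.21 to 0.22, adjusted p = 0.061 to 0.064) and under quantile normalization (0.22). In Polg+/+ kidneys Slc25a22 was at -0.11 ± 0.10 (adjusted p = 0.38) and Slc25a37 at 0.04 ± 0.06 (adjusted p = 0.63).

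Cofactor carriers made up the largest class of falls. Of these, 6 of 8 were lower in PolgD257A (30.3% of all genes) and 6 of 8 in Polg+/+ kidneys (19.8% of all genes). Slc25a42 had 877, 1327 and 1691 in B-IRI and 3219.6, 3302 and 3595 in sham PolgD257A kidneys. In Polg+/+ it had 1617, 2097 and 2776 in B-IRI and 2995, 3104 and 3971 in sham kidneys. Neither genotype's groups overlapped, and the falls were 2.62-fold in PolgD257A (log2 -1.39 ± 0.12, adjusted p = 2.2e-10) and 1.57-fold in Polg+/+ (log2 -0.65 ± 0.12, adjusted p = 1.1e-04). Slc25a51 fell by 0.67 ± 0.05 in PolgD257A (adjusted p = 3.6e-11) and by 0.35 ± 0.05 in Polg+/+ kidneys (adjusted p = 8.7e-06), and Slc25a16 by 0.66 ± 0.07 in PolgD257A (adjusted p = 2.3e-08) and 0.33 ± 0.07 in Polg+/+ (adjusted p = 8.4e-04). The folate and FAD carrier Slc25a32 fell in PolgD257A (400.3, 430.4 and 479.8 in B-IRI, 507, 519.7 and 580.2 in sham, log2 -0.30 ± 0.06, adjusted p = 4.8e-05) and in Polg+/+ kidneys (403, 419 and 478 in B-IRI, 484, 522 and 543 in sham, log2 -0.27 ± 0.06, adjusted p = 3.8e-04), with no overlap in either. The glutathione carrier Slc25a40 fell by 0.28 ± 0.07 in PolgD257A (adjusted p = 8.0e-04) and 0.23 ± 0.07 in Polg+/+ kidneys (adjusted p = 0.007). Its more abundant paralog Slc25a39 fell by 0.51 ± 0.05 in PolgD257A (adjusted p = 6.0e-09) and by 0.18 ± 0.05 in Polg+/+ kidneys (adjusted p = 0.0095), where quantile normalization turned the sign (0.03).

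For the abundant carriers Slc25a5 and Slc25a3 the direction with B-IRI turned under quantile normalization, and for Slc25a4 the call changed under it. With TMM scaling the calls of these carriers stayed as reported. Slc25a5 was at -0.42 ± 0.06 (adjusted p = 4.9e-07) in PolgD257A, with no overlap between 16837, 18254 and 19394 in B-IRI and 23165, 23996 and 26457 in sham kidneys, and at -0.08 ± 0.06 in Polg+/+ (adjusted p = 0.27). Under quantile normalization it stood at 0.02 in PolgD257A and 0.14 in Polg+/+ kidneys. Slc25a3 was at -0.26 ± 0.05 in PolgD257A (adjusted p = 7.3e-05) and -0.04 ± 0.05 in Polg+/+ (adjusted p = 0.56), and quantile normalization gave a rise in both (0.17 in PolgD257A and 0.18 in Polg+/+). Slc25a4 was at -0.22 ± 0.07 in PolgD257A (adjusted p = 0.0082), -0.01 under quantile normalization, and at 0.08 ± 0.07 in Polg+/+ (adjusted p = 0.40), 0.15 under quantile normalization. The pyrimidine nucleotide carrier Slc25a36 fell in both genotypes. It had 1591, 1749 and 2011 in B-IRI and 2113, 2315 and 2699 in sham Polg+/+ kidneys, which did not overlap (log2 -0.41 ± 0.07, adjusted p = 7.7e-05). In PolgD257A the change was -0.33 ± 0.07 (adjusted p = 3.6e-04) and the groups overlapped (1364 to 1775 in B-IRI, 1705 to 2131 in sham). Slc25a33 did not pass in PolgD257A (-0.15 ± 0.13) or Polg+/+ (-0.01 ± 0.13). Slc25a23 fell in PolgD257A (log2 -0.33 ± 0.06, adjusted p = 4.4e-05) and was at -0.09 ± 0.06 in Polg+/+ kidneys.

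Carboxylate carriers fell in 3 of 5 cases in PolgD257A (30.3% of all genes) and 1 of 5 in Polg+/+ kidneys (19.8% of all genes), so that the Polg+/+ count was near that of all genes. Slc25a21 had 217, 263 and 347 in B-IRI and 441, 474 and 557 in sham PolgD257A kidneys, a 1.82-fold fall without overlap (log2 -0.86 ± 0.10, adjusted p = 1.9e-08), and fell by 0.31 ± 0.10 in Polg+/+ (adjusted p = 0.012). Slc25a11 fell in PolgD257A (log2 -0.57 ± 0.06, adjusted p = 2.8e-09), where B-IRI kidneys had 2636 to 3297 and sham kidneys 4233 to 4820.4, and did not pass in Polg+/+ (log2 -0.09 ± 0.06, adjusted p = 0.21). Slc25a10 fell in PolgD257A (log2 -0.52 ± 0.13, adjusted p = 0.0012) with overlapping groups, and was at -0.09 ± 0.13 in Polg+/+. Slc25a20 and Slc25a1 did not pass in either genotype, and quantile normalization called Slc25a1 higher in PolgD257A (0.13). Of the amino acid carriers 4 of 10 fell in PolgD257A and 2 of 10 in Polg+/+ kidneys, both near the same shares of all genes. Slc25a13 fell by 0.68 ± 0.06 in PolgD257A (adjusted p = 5.8e-11) and by 0.21 ± 0.06 in Polg+/+ (adjusted p = 0.0029), Slc25a12 by 0.44 ± 0.05 in PolgD257A (adjusted p = 5.3e-09) and 0.15 ± 0.05 in Polg+/+ (adjusted p = 0.011). Slc25a29 (log2 -0.67 ± 0.13, adjusted p = 5.9e-05) and Slc25a45 (log2 -0.34 ± 0.06, adjusted p = 5.7e-05) fell in PolgD257A, and in Polg+/+ Slc25a29 was at -0.25 ± 0.13 and Slc25a45 at -0.12 ± 0.06.

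Among the remaining classes, Slc25a35 fell in PolgD257A, with 195, 262 and 335 in B-IRI and 393, 409.9 and 439 in sham kidneys (log2 -0.70 ± 0.10, adjusted p = 1.0e-06). In Polg+/+ kidneys it had 337, 381 and 458 in B-IRI and 340.4, 406 and 425 in sham (log2 -0.00 ± 0.10, adjusted p = 0.98), so that the groups overlapped almost entirely. Slc25a34 (log2 -0.52 ± 0.11, adjusted p = 2.0e-04) and Slc25a46 (log2 -0.17 ± 0.05, adjusted p = 0.0034) also fell in PolgD257A. In Polg+/+ kidneys alone the test passed for 2 low carriers, Slc25a27 (log2 -0.46 ± 0.11, adjusted p = 0.0017) and Slc25a53 (log2 -0.47 ± 0.13, adjusted p = 0.0062), and the difference between genotypes did not pass for either (interaction adjusted p = 0.11 for Slc25a27 and 0.21 for Slc25a53). Slc25a27 was the single member of the uncoupling protein relatives to fall, while Slc25a30 and Slc25a14 did not pass in either genotype (-0.12 ± 0.09 and 0.06 ± 0.09 in PolgD257A, 0.06 ± 0.09 and 0.09 ± 0.09 in Polg+/+). Slc25a43, at 13.7 to 22.4 normalized counts in B-IRI and 8.18 to 14.9 in sham Polg+/+ kidneys, was at 0.60 ± 0.25 (adjusted p = 0.055). It passed with edgeR (0.64, adjusted p = 0.049), in 3 other fits (0.47 to 0.66) and without any one of 6 libraries (0.60 to 0.67), which were sham Polg+/+ replicates 1 and 6, sham PolgD257A replicate 3, B-IRI Polg+/+ replicate 3 and B-IRI PolgD257A replicates 1 and 3.

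A few calls with B-IRI appeared when 1 library was left out. In PolgD257A kidneys Slc25a26 passed without sham PolgD257A replicate 1 (-0.19) and under quantile normalization (-0.21), and Slc25a44 without sham PolgD257A replicate 6 or B-IRI PolgD257A replicate 5 (-0.15 to -0.13). In Polg+/+ kidneys Slc25a17 passed without B-IRI PolgD257A replicate 1 and in a fit of the 12 Polg+/+ libraries (0.14 in each), Slc25a34 without B-IRI Polg+/+ replicate 1 (-0.31) and Slc25a45 without sham Polg+/+ replicate 6 (-0.16).

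The interaction asks whether B-IRI changed a carrier by a different amount in the genotypes, as the change in PolgD257A minus that in Polg+/+ kidneys. It passed for 13 carriers, 12 (28.6%) of them more negative in PolgD257A and 1 (2.38%) more positive, against 9.08% and 6.87% of all genes. The count of more negative carriers was 8 under quantile normalization, 9 without the filter and 10 with a replicate block. It was 12 or 13 in the other fits of all 24 libraries. The smallest adjusted p belonged to Slc25a13 (log2 -0.47 ± 0.08, adjusted p = 3.6e-04) and Slc25a11 (log2 -0.48 ± 0.08, adjusted p = 4.0e-04), and Slc25a12 passed too (log2 -0.29 ± 0.06, adjusted p = 0.0032), so that all 3 carriers of the malate-aspartate shuttle stood in this group. Slc25a35 was at -0.69 ± 0.14 (adjusted p = 0.0017), Slc25a39 at -0.33 ± 0.07 (adjusted p = 0.0038), Slc25a42 at -0.74 ± 0.17 (adjusted p = 0.0046), Slc25a51 at -0.32 ± 0.08 (adjusted p = 0.0047) and Slc25a21 at -0.55 ± 0.14 (adjusted p = 0.0068). Slc25a24 was the one carrier with a larger rise in PolgD257A (log2 0.92 ± 0.25, adjusted p = 0.012). Slc25a22 missed the threshold (log2 0.39 ± 0.14, adjusted p = 0.058) and passed with edgeR (0.42, adjusted p = 0.045) and DESeq2 (0.42, adjusted p = 0.032), with a filter of 50 normalized counts (adjusted p = 0.0496), and without sham Polg+/+ replicate 2 or 5 or B-IRI PolgD257A replicate 2 or 5 (0.43 to 0.46). Slc25a5 (log2 -0.34 ± 0.08, adjusted p = 0.0055) lost its call under quantile normalization (-0.11).

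The remaining 3 interaction calls were less steady. Slc25a16 (log2 -0.33 ± 0.11, adjusted p = 0.034) failed without any one of 8 libraries (-0.32 to -0.27), Slc25a3 (log2 -0.22 ± 0.07, adjusted p = 0.035) without any one of 10 (-0.21 to -0.19) and Slc25a4 (log2 -0.29 ± 0.10, adjusted p = 0.04) without any one of 16 (-0.30 to -0.24), and all 3 failed under quantile normalization (-0.27, -0.01 and -0.16) and without the filter (adjusted p = 0.065, 0.081 and 0.080). The libraries for Slc25a16 were replicates 1 and 2 of B-IRI PolgD257A, 1, 4 and 5 of B-IRI Polg+/+, 3 of sham PolgD257A and 1 and 6 of sham Polg+/+. For Slc25a3 they were replicates 1, 4 and 6 of B-IRI PolgD257A, 1 and 5 of B-IRI Polg+/+, 2 and 6 of sham PolgD257A and 1, 3 and 5 of sham Polg+/+. For Slc25a4 they were replicates 1, 4, 5 and 6 of B-IRI PolgD257A, 1 to 5 of B-IRI Polg+/+, 2, 3, 4 and 6 of sham PolgD257A and 3, 4 and 5 of sham Polg+/+. Other calls appeared when 1 library was left out. These were Slc25a10 (-0.53, without B-IRI PolgD257A replicate 6), Slc25a17 (-0.29 to -0.28, without sham PolgD257A replicate 2, replicate 2 of B-IRI Polg+/+ or B-IRI PolgD257A replicate 6), Slc25a23 (-0.27 to -0.26, without sham PolgD257A replicate 6, replicate 2 or 6 of B-IRI Polg+/+ or B-IRI PolgD257A replicate 5, and -0.24 with DESeq2), Slc25a27 (0.44, without B-IRI PolgD257A replicate 2), Slc25a44 (-0.23, without sham Polg+/+ replicate 2 or B-IRI PolgD257A replicate 5) and Slc25a45 (-0.26, without sham Polg+/+ replicate 2 or B-IRI PolgD257A replicate 2). Slc25a32 (-0.03 ± 0.08), Slc25a36 (0.08 ± 0.10), Slc25a33 (-0.14 ± 0.19) and Slc25a30 (-0.18 ± 0.13) did not pass. Markers shifted in the same comparison: the interaction passed for 4 of 8 proximal tubule markers, all more negative in PolgD257A, and for all 3 injured tubule and all 3 fibroblast markers, all more positive. Their part in the carriers' interaction was not tested.

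**Figure D4:**
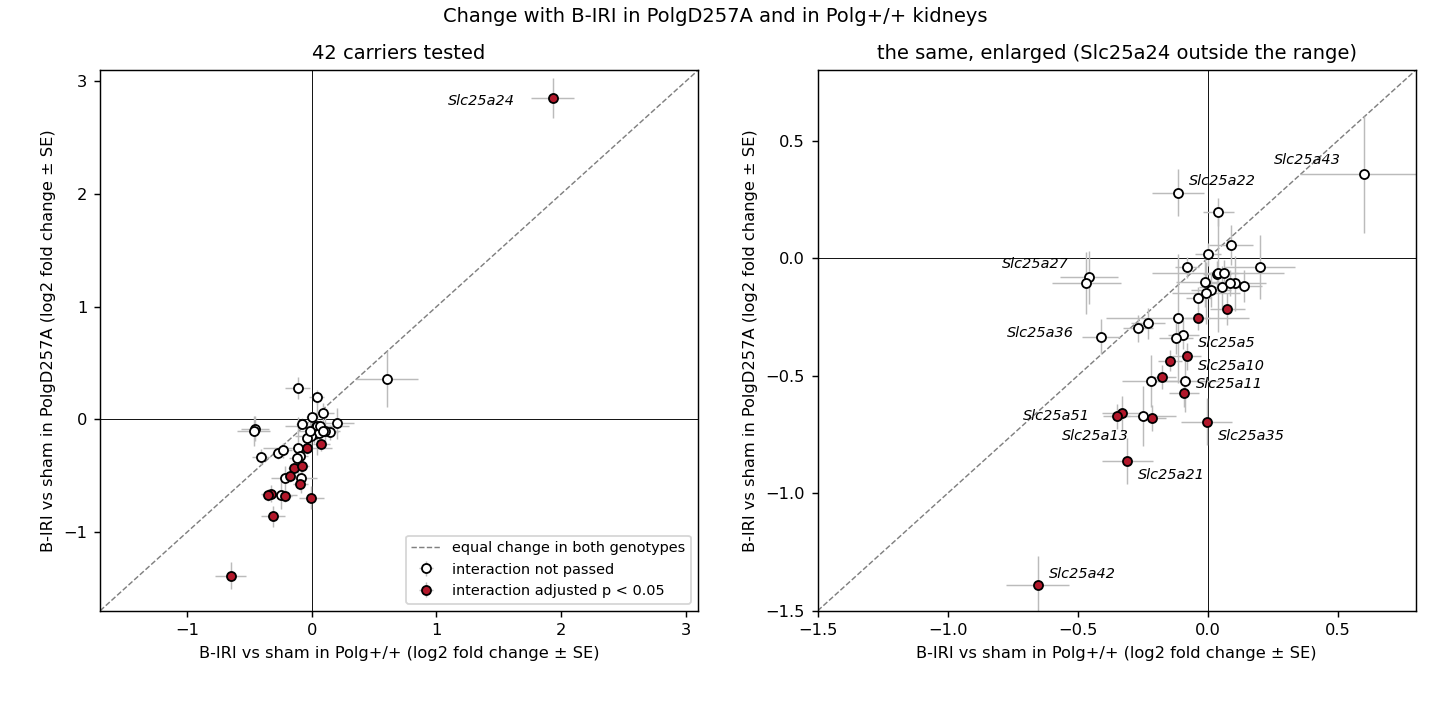
Log2 fold change of B-IRI over sham in PolgD257A kidneys (vertical) and in Polg+/+ kidneys (horizontal) for the 42 tested carriers, with SE bars; the right panel enlarges the area around 0 and leaves out Slc25a24. Filled points passed the interaction test, and 12 of these 13 lie below the dashed line of equal change, with Slc25a24 above it.

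Slc25a24 and Slc25a42 are shown with their promoter letters. With B-IRI, Slc25a24 had the largest rise and Slc25a42 the largest fall in each genotype. Between the genotypes after B-IRI, Slc25a24 again had the largest rise. Slc25a21 (log2 -0.73), which does not have a single window, fell more than Slc25a42 (log2 -0.69). Windows run from 250 bases before to 50 after the RefSeq start on GRCm38.p6, and 36 of the 46 carriers have at least 1. Each is written 5′ to 3′ on the gene's own strand (Slc25a24 chr3:109122899-109123198, plus strand; Slc25a42 chr8:70212232-70212531, minus strand). Capitals mark every match to the CCAAT box (CCAAT), the Sp1 box (GGGCGG), the AP-1 site (TGANTCA) and the half-site of estrogen-related receptors (AAGGTCA), searched on both strands.
Slc25a24: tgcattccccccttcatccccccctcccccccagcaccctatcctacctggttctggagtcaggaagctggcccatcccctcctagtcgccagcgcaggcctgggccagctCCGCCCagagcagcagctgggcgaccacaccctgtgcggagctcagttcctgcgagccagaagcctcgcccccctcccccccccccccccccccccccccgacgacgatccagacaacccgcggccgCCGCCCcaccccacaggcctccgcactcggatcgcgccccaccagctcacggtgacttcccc
Slc25a42: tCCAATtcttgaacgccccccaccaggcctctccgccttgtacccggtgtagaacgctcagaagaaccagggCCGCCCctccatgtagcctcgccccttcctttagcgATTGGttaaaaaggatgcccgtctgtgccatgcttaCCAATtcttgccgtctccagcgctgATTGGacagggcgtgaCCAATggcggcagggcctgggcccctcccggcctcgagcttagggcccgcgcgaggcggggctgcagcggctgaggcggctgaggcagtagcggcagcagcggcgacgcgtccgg
The Slc25a42 window holds 5 CCAAT boxes and 1 Sp1 box, the Slc25a24 window 0 and 2, and the matches do not overlap. Neither window has a match to the other 2 motifs. Their GC contents are 65.7% for Slc25a42 and 72.3% for Slc25a24, beside a median of 59.3% over the carriers' 46 windows and 52.7% over all 32851 windows. Among the 36 carriers with a window, 30 had an Sp1 box, 19 a CCAAT box, 2 an AP-1 site (Slc25a11 and Slc25a13) and 1 a receptor half-site (Slc25a34). Of all 27025 genes with a window 38.2% had an Sp1 box, 41.1% a CCAAT box, 8.97% an AP-1 site and 5.38% a half-site. These matches describe letters and not binding.

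Carriers of one substrate were also set against each other within a library, where scaling drops out. The log2 ratios of 7 pairs were compared in 4 comparisons, 28 exact two-sided permutation tests in all, with p-values adjusted over the 28 and a smallest possible p of 0.002165. Slc25a25 over Slc25a24, both ATP-Mg/phosphate carriers, had ratios of 1.17, 1.71 and 4.36 in B-IRI PolgD257A and 10.3, 14.3 and 20.9 in sham PolgD257A kidneys, with no overlap. In Polg+/+ they were 1.34, 2.75 and 7.96 in B-IRI and 4.89, 12.7 and 13.8 in sham kidneys, which overlapped. The log2 difference was -2.91 in PolgD257A (exact permutation p = 0.002165, adjusted p = 0.030) and -1.89 in Polg+/+ (exact permutation p = 0.0043, adjusted p = 0.030). Slc25a25 itself did not pass with B-IRI in PolgD257A (-0.06 ± 0.25) or in Polg+/+ kidneys (0.04 ± 0.25), while Slc25a24 rose in both.

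Slc25a4 gained on Slc25a5, with ratios of 0.395, 0.437 and 0.482 in B-IRI PolgD257A and 0.352, 0.379 and 0.396 in sham PolgD257A kidneys. The ranges met at their edges (log2 difference 0.20, exact permutation p = 0.0043, adjusted p = 0.030), and the call was lost without any one of 3 sham PolgD257A libraries, replicates 4, 5 and 6 (0.20, adjusted p = 0.052). In Polg+/+ the ratios were 0.369, 0.405 and 0.432 in B-IRI and 0.328, 0.360 and 0.413 in sham kidneys, a difference of 0.16 that did not pass (adjusted p = 0.091 by exact permutation) and did without sham Polg+/+ replicate 6 (0.20). Slc25a12 gained on Slc25a13 in PolgD257A, with 0.578, 0.591 and 0.691 in B-IRI and 0.472, 0.512 and 0.543 in sham kidneys, which did not overlap (0.25, exact permutation p = 0.002165, adjusted p = 0.030). In Polg+/+ kidneys it did not pass (0.07, adjusted p = 0.47 by exact permutation). Between the mitoferrins, Slc25a28 over Slc25a37 had 1.15, 1.24 and 1.41 in B-IRI and 1.38, 1.46 and 1.68 in sham PolgD257A kidneys (-0.24, exact permutation p = 0.0065, adjusted p = 0.036), lost without sham PolgD257A replicate 5 or 6 or B-IRI PolgD257A replicate 1 (-0.24 to -0.21, adjusted p = 0.051 to 0.052). Slc25a18 over Slc25a22 differed between the genotypes after B-IRI (-0.69, exact permutation p = 0.0087, adjusted p = 0.040), but Slc25a18 had only 5.07 to 10.6 normalized counts in PolgD257A and 8.40 to 12.04 in Polg+/+ kidneys, and 10 of the 24 libraries ended the call when left out (-0.74 to -0.62). These were replicates 2, 3 and 6 of B-IRI PolgD257A, 1, 2, 4, 5 and 6 of B-IRI Polg+/+ and 5 and 6 of sham PolgD257A. The pyrimidine nucleotide pair, Slc25a33 over Slc25a36, had 0.118, 0.171 and 0.206 in sham PolgD257A and 0.0692, 0.120 and 0.134 in sham Polg+/+ kidneys, a difference of 0.55 that did not pass (exact permutation p = 0.017, adjusted p = 0.061) and did without sham PolgD257A replicate 1 or 3 (0.61 to 0.64). With B-IRI in Polg+/+ kidneys the same ratio was 0.115, 0.151 and 0.164 in B-IRI and 0.0692, 0.120 and 0.134 in sham, a log2 difference of 0.40 (exact permutation p = 0.013, adjusted p = 0.052). It passed without replicate 4 of B-IRI PolgD257A, 1 of B-IRI Polg+/+, 1, 2 or 3 of sham PolgD257A or 5 of sham Polg+/+ (0.40 to 0.47). Where a library outside the pair of groups was left out, the difference was the same and the adjustment alone moved. Between the genotypes after B-IRI the difference was 0.33 (exact permutation p = 0.0498, adjusted p = 0.12), and it passed without replicate 4 of B-IRI PolgD257A (0.41). In PolgD257A kidneys with B-IRI it was 0.19 (exact permutation adjusted p = 0.42). The glutathione pair Slc25a39 over Slc25a40 passed in 0 of its 4 tests, with an unadjusted exact permutation p under 0.05 in 1 of them (B-IRI against sham in PolgD257A, -0.23, adjusted p = 0.067), which passed without sham PolgD257A replicate 2 (-0.27).

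**Figure D5:**
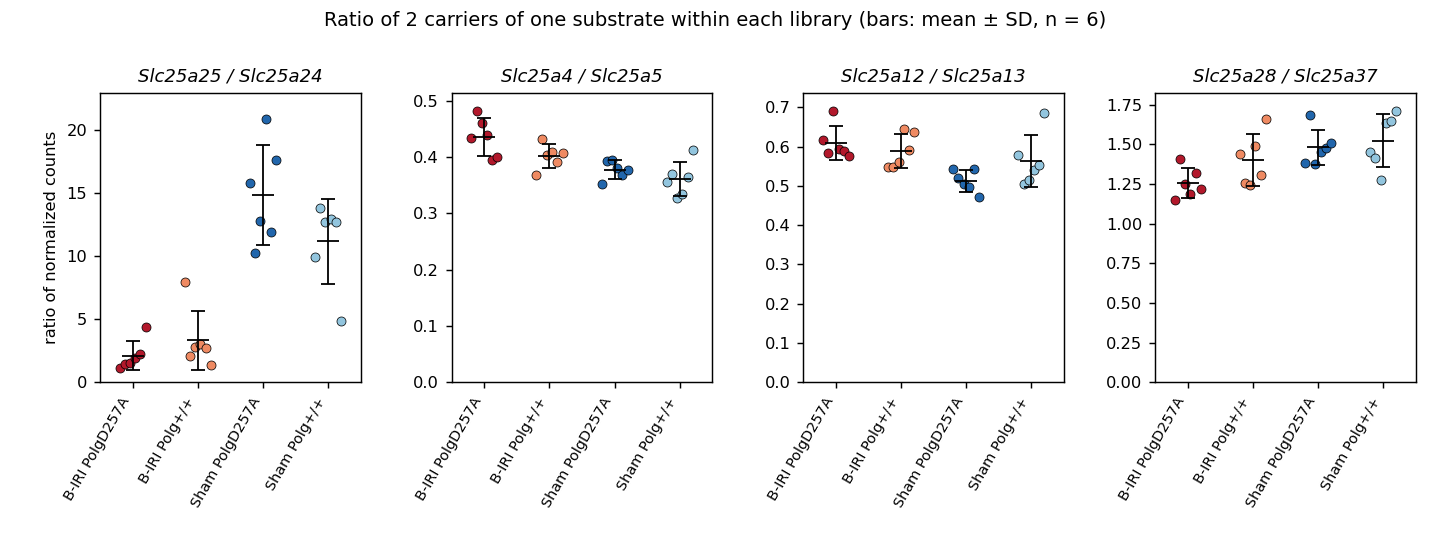
Ratio of normalized counts of 2 carriers within each of the 24 libraries for 4 pairs, with the mean and SD of 6 libraries as bars; axes start at 0. The mean Slc25a25 over Slc25a24 ratio is lower in both B-IRI groups than in sham of the same genotype, and Slc25a12 over Slc25a13 separates B-IRI PolgD257A from sham PolgD257A libraries.

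Genes that work beside the carriers were read from lists made by role. Import of carriers into the inner membrane runs through TOM and TIM22 subunits. Of 9 such genes 0 passed between genotypes after B-IRI by limma, against 15.2% lower and 14.3% higher among all genes. At an unadjusted p under 0.05 there was 1 (median -0.0026). With B-IRI 0 of 9 were lower in either genotype, against 30.3% of all genes in PolgD257A and 19.8% in Polg+/+ kidneys. Higher with B-IRI were 2 of 9 in PolgD257A (30.2% of all genes) and 3 of 9 in Polg+/+ kidneys (21.4% of all genes), so that the counts of rises were near those of all genes. Among them were the pore Tomm40 (log2 0.35 ± 0.05, adjusted p = 2.5e-06 in PolgD257A, and log2 0.44 ± 0.05, adjusted p = 2.4e-07 in Polg+/+) and the chaperone Timm10 (log2 0.40 ± 0.08, adjusted p = 1.5e-04 in PolgD257A, and log2 0.28 ± 0.08, adjusted p = 0.0089 in Polg+/+). Of 16 other transporters of the inner membrane, 10 were lower and 1 higher in PolgD257A than in Polg+/+ kidneys after B-IRI (median -0.21), against 15.2% lower and 14.3% higher among all genes. The smallest adjusted p belonged to the sideroflexin Sfxn2 (log2 -0.48 ± 0.07, adjusted p = 1.6e-05), the pyruvate carrier subunit Mpc1 (log2 -0.37 ± 0.06, adjusted p = 7.1e-05) and Letm1, a cation exchanger (log2 -0.24 ± 0.04, adjusted p = 1.3e-04). The calcium uniporter pore Mcu was the one that was higher (log2 0.19 ± 0.06, adjusted p = 0.024). With B-IRI 11 of 16 fell and 2 rose in PolgD257A (30.3% and 30.2% of all genes), and 7 fell and 3 rose in Polg+/+ kidneys (19.8% and 21.4% of all genes). The pyruvate carrier subunits Mpc1 (-0.87 ± 0.06 in PolgD257A, -0.43 ± 0.06 in Polg+/+) and Mpc2 (-1.04 ± 0.08 in PolgD257A, -0.46 ± 0.08 in Polg+/+) were lower in both.

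The enzymes of the malate-aspartate shuttle work on either side of Slc25a11, Slc25a12 and Slc25a13. After B-IRI, 2 of 4 were lower in PolgD257A than in Polg+/+ kidneys and 0 higher, against 15.2% and 14.3% of all genes. These were the malate dehydrogenases Mdh1 of the cytosol (log2 -0.54 ± 0.08, adjusted p = 1.4e-05) and Mdh2 of the matrix (log2 -0.18 ± 0.05, adjusted p = 0.0047), while the aspartate aminotransferases Got1 (-0.12 ± 0.06) and Got2 (-0.06 ± 0.04) did not pass. Got1 rose with B-IRI in PolgD257A (log2 0.24 ± 0.06, adjusted p = 0.0024) and in Polg+/+ kidneys (log2 0.40 ± 0.06, adjusted p = 1.7e-05), unlike the shuttle's carriers. Of the carnitine acyltransferases, which work with Slc25a20, 0 of 4 passed between genotypes after B-IRI by limma, with 2 at an unadjusted p under 0.05. With B-IRI all 4 were lower in PolgD257A (30.3% of all genes) and 2 in Polg+/+ kidneys (19.8% of all genes). For example, Cpt1a fell in both (log2 -0.69 ± 0.09, adjusted p = 1.7e-07 in PolgD257A, and log2 -0.50 ± 0.09, adjusted p = 5.0e-05 in Polg+/+). Slc25a20 itself was at -0.11 ± 0.12 in PolgD257A and 0.11 ± 0.12 in Polg+/+ kidneys. Among the outer membrane porins Vdac1 alone was lower in PolgD257A than in Polg+/+ kidneys after B-IRI (log2 -0.30 ± 0.05, adjusted p = 7.7e-05), and Vdac3 rose with B-IRI in PolgD257A (log2 0.27 ± 0.05, adjusted p = 3.1e-05) and in Polg+/+ (log2 0.30 ± 0.05, adjusted p = 2.1e-05). Family members under other symbols included Ucp2, which rose with B-IRI in PolgD257A (log2 0.82 ± 0.17, adjusted p = 1.2e-04) and in Polg+/+ kidneys (log2 0.71 ± 0.17, adjusted p = 0.0011) and did not pass between genotypes after it (log2 0.16 ± 0.17, adjusted p = 0.52), and Mtch2, which was lower in PolgD257A after B-IRI (log2 -0.16 ± 0.05, adjusted p = 0.013). In sham kidneys 0 of the 40 companion genes tested passed between the genotypes by limma, and 2 had an unadjusted p under 0.05.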

How the data were processed

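RNA-seq of 24 mouse kidneys was analysed from deposited tables. Per the labels' protocols, 2 µg of RNA from RNeasy columns was made into each NEBNext Ultra II library. The submitters' processing notes name FastQC, STAR, SAMtools, featureCounts and DESeq2, with the build GRCm38.p6 and without tool versions.

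The main deposited table holds signal values, which are gene counts that the authors divided by 1 size factor per library (0.740 to 1.31). Multiplying back gave whole reads for 100% of values within 0.001. A second deposited table gives the authors' shrunken log2 fold changes and s-values, a p-value-like measure of a wrong sign, for selected genes. Column names reading Ctrl, Mut and SurgBIR were taken as Polg+/+, PolgD257A and B-IRI. No source used here states this, and every comparison rests on it.

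The members and lists were chosen with earlier results of these data known. Of the 47 rows that met the rule for members, 1 is not reported here and is left out of every count of carriers. The 17430 genes that reached 10 normalized counts in 6 or more libraries were tested on log2(normalized count + 1) with limma 3.58.1 (trend, all 24 libraries, 4 group means), Benjamini-Hochberg adjusted within each comparison. The text names, for each comparison, the 5 largest rises and falls past 0.05 whose mean reached 100 normalized counts, 8 carriers always, the 8 smallest interaction p-values and up to 3 companion genes per list. Other carriers are given so that every member is accounted for and were chosen after their values were seen. Alternatives were pseudocounts of 0.5 and 5, no filter or a filter of 50, TMM scaling, quantile normalization, 12 libraries only, a replicate block, count models on the recovered reads (edgeR 4.0.16, DESeq2 1.42.0), and each library left out. The model fits were tested on simulated data. R 4.3.3, Python 3.11.15, SciPy 1.17.1, NumPy 2.4.6, pandas 2.3.3 and Matplotlib 3.10.9 were used.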

Additional observations from a re-analysis of the deposited data

Results flagged for a closer look

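In 15 of 168 groups of 6 libraries, 1 per carrier and group, the highest or lowest library stood apart from the other 5 by Dixon's test. For normally distributed values the test flags about 1 in 20 groups by chance, and its rate over all genes tested was not computed. After B-IRI in PolgD257A kidneys, replicate 5 was high for Slc25a36 (1775 normalized counts, the others 1364 to 1471) and Slc25a44 (1272, the others 1024 to 1104), and replicate 6 for Slc25a30 (3247, the others 2414 to 2708). After B-IRI in Polg+/+ kidneys, replicate 1 was high for Slc25a10 (11923, the others 7746 to 9264), Slc25a17 (3427, the others 2675 to 2949) and Slc25a30 (3121, the others 2519.6 to 2679), and replicate 4 for Slc25a14 (137, the others 123 to 127). That replicate 1 also had the least Havcr1 of its group.

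In sham PolgD257A kidneys, replicate 6 was high for Slc25a5 (26457, the others 23165 to 24206) and Slc25a42 (3595, the others 3219.6 to 3354). Replicate 2 was low for Slc25a37 (818, the others 919 to 952) and Slc25a53 (44.4, the others 57.7 to 64.0), and replicate 5 for Slc25a45 (737, the others 780.1 to 796). In sham Polg+/+ kidneys, replicate 3 was high for Slc25a42 (3971, the others 2995 to 3312) and Slc25a40 (415, the others 344 to 362), and replicate 6 was low for Slc25a25 (574, the others 1009 to 1245).

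The change with B-IRI differed between PolgD257A and Polg+/+ kidneys, by limma's interaction, for 13 carriers. The log2 difference was -0.74 for Slc25a42, -0.69 for Slc25a35, -0.55 for Slc25a21, -0.48 for Slc25a11, -0.47 for Slc25a13, -0.34 for Slc25a5 and -0.33 for Slc25a39 and Slc25a16. It was -0.32 for Slc25a51, -0.29 for Slc25a4 and Slc25a12, -0.22 for Slc25a3 and 0.92 for Slc25a24.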

How the results depend on the processing

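Counts of called carriers stayed within 1.5 times those reported in the fits tried, with these exceptions. Between the genotypes in sham, quantile normalization and DESeq2 each called 1 carrier lower and leaving out 1 library gave 0 to 1, against 0 reported. For B-IRI against sham in Polg+/+ kidneys, 1 carrier was reported higher, against 2 with a pseudocount of 5, 5 under quantile normalization, 3 in a fit of the 12 libraries, 2 with edgeR and 1 to 3 with 1 library left out. For the interaction, 1 was reported more positive, against 2 with a filter of 50 normalized counts, with a replicate block, with edgeR and with DESeq2, and 1 to 3 with 1 library left out. With 1 library left out, 13 to 17 carriers were lower and 2 to 3 higher between the genotypes after B-IRI. With B-IRI, 21 to 22 were lower and 2 to 3 higher in PolgD257A kidneys, 12 to 13 lower in Polg+/+ kidneys, and 9 to 14 had a more negative interaction. Of 69 called values 53 kept their call in every fit and 16 lost it in at least 1.

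Of values that passed in either fit, 5 turned sign, all under quantile normalization. Values that passed in neither fit also crossed 0, with 1 library left out among other settings. In PolgD257A kidneys with B-IRI, Slc25a3 stood at 0.17 and Slc25a5 at 0.0216, and in Polg+/+ kidneys Slc25a3 stood at 0.18, Slc25a5 at 0.14 and Slc25a39 at 0.0264. The cause was not tested. Libraries with the same replicate number shared no strong deviation from their group means, and a weaker tie between them was not tested. Over 36 pairs of libraries with the same number, the correlation of deviations from the group means was between -0.326 and 0.174 with a median of -0.011, it was over 0.1 in 2, and 3 libraries correlated best with their own number. With the number as a block, 16 carriers were lower and 3 higher between the genotypes after B-IRI, 21 and 3 with B-IRI in PolgD257A, 12 and 1 in Polg+/+ kidneys, and 10 and 2 for the interaction. With the block Slc25a34 lost its call after B-IRI (adjusted p = 0.056) and Slc25a47 gained one (adjusted p = 0.033). The interaction calls of Slc25a3 (adjusted p = 0.063) and Slc25a4 (adjusted p = 0.064) were lost, and Slc25a22 gained one (adjusted p = 0.035). Low depth limits Slc25a18 and Slc25a43, which lie near the filter of 10 normalized counts.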
